A study of Mus musculus with 4 samples.

Results

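The genes described here code for the oxidative phosphorylation apparatus of mitochondria in haploid germ cells of mice lacking Sox30, compared with wild-type mice. Members were chosen by symbol: subunits and assembly factors of complex I (Nduf), complex II (Sdh), complex III (Uqcr, Uqcc and Cyc1), complex IV (Cox4 to Cox8), complex V (Atp5) and the cytochromes c (Cycs and Cyct). The rule found 94 of the 22552 symbols in the tables, each on a single entry. Of these, 84 are subunits or cytochromes c, 5 are assembly factors and 5 carry a matching name without being an established subunit (Cox4nb, Atp5s, Atp5sl, Cox7a2l and Ndufa4l2). Cox4nb is listed by RefSeq as Emc8, a subunit of a protein complex of the endoplasmic reticulum. Subunits that the mitochondrial DNA codes for were not analysed here.

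The RNA came from haploid cells labelled as round spermatids, collected by fluorescence sorting of Hoechst-stained testis cells of male mice aged 23 days. The knockout group (KO) held 2 libraries from Sox30 knockout mice and the wild-type group (WT) held 2 libraries from mice with intact Sox30, which codes for a SOX transcription factor. The strain labels were DBA/C58/ICR and DBA/C60/ICR for KO libraries 1 and 2, against DBA/C57/ICR and DBA/C59/ICR for WT libraries 1 and 2. The number in the label rises by 1 from library to library, so whether the strains truly differ is uncertain, and the labels were not used. The labels name neither the part of Sox30 that was removed nor which animals each library was made from, so the p-values speak only of library-to-library spread, which can be purely technical. Levels are FPKM, fragment counts scaled by transcript length and by the number of mapped fragments, as computed by the authors. Changes are KO minus WT on the log2(FPKM + 1) scale, on which changes of weakly expressed genes come out too small. Their tests are limma fits across the 9124 genes with a mean of at least 1 FPKM, with Benjamini-Hochberg adjustment over all of them and a threshold of 0.05.

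Oxidative phosphorylation passes electrons from NADH and succinate through complexes I to IV to oxygen, pumps protons across the inner mitochondrial membrane, and lets complex V make ATP from their return. Cytochrome c carries electrons from complex III to complex IV. Male germ cells replace several widely expressed subunits with testis forms: Cyct is the testis cytochrome c, and Cox6b2, Cox7b2 and Cox8c are testis forms of complex IV subunits.

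Sox30 stood at 1.46 and 3.16 FPKM in KO libraries 1 and 2, against 11.4 and 16.2 FPKM in WT libraries 1 and 2, so that its log2 value fell by 2.19 (limma adjusted p = 0.0219, SE 0.43). That call was lost with no filter on low values (limma adjusted p = 0.121), without WT library 1 (limma adjusted p = 0.295) and without WT library 2 (limma adjusted p = 0.357), while both KO values lay below both WT values. Markers of several cell types differed in level between the genotypes. Of 12 round spermatid markers 9 fell and 0 rose, where 13.4% of all genes tested fell and 1.95% rose. Their levels summed to 1262 and 838 FPKM in KO libraries, against 13352 and 8536 FPKM in WT libraries. Acr, Zpbp and Zpbp2 were not called, and Zpbp2 was at 765 and 527 FPKM in KO libraries, against 620 and 604 FPKM in WT libraries. None of 11 tested spermatocyte markers was called by limma, and they summed to 934 and 616 FPKM in KO libraries, against 672 and 676 FPKM in WT libraries. Ccna1 and Aurka carried most of the KO sums, while the median change of the 11 was -0.80. Both KO values lay below both WT values in 7 of them, where 38.6% of all genes tested did so. After lowess corrections of each library on both GC content and transcript length, the median of the 11 was 0.05. Spermatogonial markers summed to 7.13 and 5.69 FPKM in KO libraries, against 30.7 and 33.5 FPKM in WT libraries, with 3 of 4 tested falling, and Sertoli cell markers to 82.6 and 41.8 FPKM, against 101 and 267 FPKM, with 0 of 2 tested passing. Macrophage and blood markers summed to 8.26 and 0.283 FPKM in KO libraries, against 242 and 132 FPKM in WT libraries, and both that were tested fell. Both were haemoglobin genes, Hba-a1 and Hbb-b1, which carried most of the WT sums. The other markers of this list were below 1 FPKM in every library. Of these, Cd68 and Csf1r were highest in a KO library, and Ptprc, Lyz2 and Alas2 in a WT library. The fall thus speaks of blood markers and not of macrophage markers. Of the Leydig cell markers Insl3 was at 0 FPKM to 4 decimals in both KO libraries, against 54.8 and 30.3 FPKM in WT libraries, and Cyp17a1 at 0 in both, against 2.504 and 3.402 FPKM. In such sorted populations fewer cells of a type and less RNA per cell cannot be told apart, and the part that the makeup of the cells has in the values below was not tested.

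Promoter sequences are shown for 2 pairs of a testis and a widely expressed form, whose levels differ in every library, and for Uqcc, the single member that fell. They run from 250 bases before to 50 bases after the start of the gene, are from RefSeq on build GRCm38.p6, which is not the build of the deposited values, and all lie on the minus strand, written 5′ to 3′ along the gene. The windows are chr2:76360404-76360703 for Cyct, chr6:50566520-50566819 for Cycs, chr7:4753045-4753344 for Cox6b2, chr7:30626065-30626364 for Cox6b1 and chr2:155930261-155930560 for Uqcc (Uqcc1 in RefSeq). Capitals mark matches, on either strand, to the CRE core TGACG, the ETS core CCGGAAG, the NRF1 core GCATGCGC, the SOX core ACAAT or the CCAAT box CCAAT.
Cyct: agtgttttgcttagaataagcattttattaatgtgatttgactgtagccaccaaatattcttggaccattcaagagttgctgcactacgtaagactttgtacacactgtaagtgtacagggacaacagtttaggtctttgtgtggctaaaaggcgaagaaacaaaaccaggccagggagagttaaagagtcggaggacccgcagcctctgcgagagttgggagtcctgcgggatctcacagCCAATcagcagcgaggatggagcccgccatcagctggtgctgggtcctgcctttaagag
Cycs: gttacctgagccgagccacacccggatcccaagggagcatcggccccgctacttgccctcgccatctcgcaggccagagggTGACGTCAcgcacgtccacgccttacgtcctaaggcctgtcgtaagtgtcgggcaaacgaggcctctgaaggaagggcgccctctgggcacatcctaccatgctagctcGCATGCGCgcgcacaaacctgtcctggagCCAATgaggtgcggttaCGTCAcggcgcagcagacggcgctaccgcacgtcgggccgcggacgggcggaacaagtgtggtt
Cox6b2: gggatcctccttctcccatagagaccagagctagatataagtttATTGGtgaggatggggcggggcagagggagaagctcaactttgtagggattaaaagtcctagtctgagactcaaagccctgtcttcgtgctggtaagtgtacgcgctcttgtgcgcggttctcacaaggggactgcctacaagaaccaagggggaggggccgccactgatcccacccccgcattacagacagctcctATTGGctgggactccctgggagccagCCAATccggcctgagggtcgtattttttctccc
Cox6b1: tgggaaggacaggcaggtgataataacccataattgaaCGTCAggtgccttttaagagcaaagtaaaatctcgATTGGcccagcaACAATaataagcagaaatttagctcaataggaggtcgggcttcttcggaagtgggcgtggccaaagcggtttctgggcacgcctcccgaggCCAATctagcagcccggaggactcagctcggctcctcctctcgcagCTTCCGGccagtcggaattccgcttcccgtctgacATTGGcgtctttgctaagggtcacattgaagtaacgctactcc
Uqcc: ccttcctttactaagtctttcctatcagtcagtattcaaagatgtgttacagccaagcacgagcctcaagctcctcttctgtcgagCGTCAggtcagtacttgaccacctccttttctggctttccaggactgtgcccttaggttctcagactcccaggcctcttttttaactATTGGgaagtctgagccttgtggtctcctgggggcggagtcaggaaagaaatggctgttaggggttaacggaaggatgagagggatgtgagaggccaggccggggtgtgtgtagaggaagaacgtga

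The Cycs window held 3 CRE core matches, of which 2 overlap in a palindrome, 1 NRF1 core and 1 CCAAT box, at 65.0% GC. The Cyct window, at 48.3% GC, held 1 CCAAT box and no other of these motifs. The Cox6b1 window held an ETS core, a CRE core, a SOX core and 3 CCAAT boxes, whereas the Cox6b2 window held 3 CCAAT boxes and no other. The Uqcc window held 1 CRE core and 1 CCAAT box. Over the 77 members found in the RefSeq promoter set, taking the first window listed for each gene, the NRF1 core stood in 12 (15.6%), against 2.80% of all 27025 promoters. The ETS core stood in 20.8% of member promoters and 9.12% of all, and the CRE core in 28 of the 77 (36.4%), against 5681 of all promoters. The SOX core stood in 24.7% of member promoters and 31.6% of all, and the CCAAT box in 48.1% and 37.9%. NRF1 and the ETS factor GABP are known activators of respiratory chain genes. A match is a run of letters and was not tested as a binding site.

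Oxidative phosphorylation transcripts were abundant in both genotypes. The 90 tested members had a median level of 216 FPKM over the 4 libraries, against 7.71 FPKM for all genes tested. Together the members took 9.16% and 12.7% of all FPKM in KO libraries 1 and 2, against 7.75% and 6.84% in WT libraries 1 and 2. Members at 1000 FPKM or more numbered 19 and 26 in KO libraries, against 15 and 12 in WT libraries. Cox8c, the most abundant, ranked 12 and 7 among all symbols in KO libraries, against 10 and 13 in WT libraries. The members left untested were Cox4i2, Cox6a2 and Cox8b, forms of complex IV subunits known from other tissues (lung, and heart and skeletal muscle), and the assembly factor Ndufaf4. Cox6a2 and Cox8b were listed at 0 in all 4 libraries, Cox4i2 at 0 except for 0.192 FPKM in WT library 2, and Ndufaf4 at 1.003 and 0.0319 FPKM in KO libraries, against 0.802 and 0.537 FPKM in WT libraries.

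Few members passed the test. Of the 90 tested, 1 fell (Uqcc), or 1.11%, where 13.4% of all genes tested fell, and 1 rose (Atp5d), or 1.11%, where 1.95% of all genes tested rose. At an unadjusted p under 0.05, 24 members were higher and 1 was lower in KO. Counts at that level were not taken over all genes, so they have no background share to be read against. The median log2 change was 0.67 over the members and -0.23 over all genes tested. In 57 members (63.3%) both KO values lay above both WT values, where 22.2% of all genes tested did so, and in 6 members (6.67%) both lay below, where 38.6% did so. The number of calls rested on the libraries used, for all genes as for members. Leaving out a library leaves 1 library in its genotype, which is assumed to vary like the pair of the other genotype. Without KO library 1, where the spread comes from the WT pair, 36 members were higher and 5 lower, beside 984 and 3071 of all genes. Without KO library 2 these were 5 and 2 members, beside 898 and 1846 of all genes. Without WT library 1 or WT library 2, where the spread comes from the KO pair, limma called 0 members, beside 0 higher and 386 lower of all genes in the first fit and 0 in either direction in the second, with 0 members higher and 1 lower at an unadjusted p under 0.05 in each of these 2 fits.

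**Figure D1:**
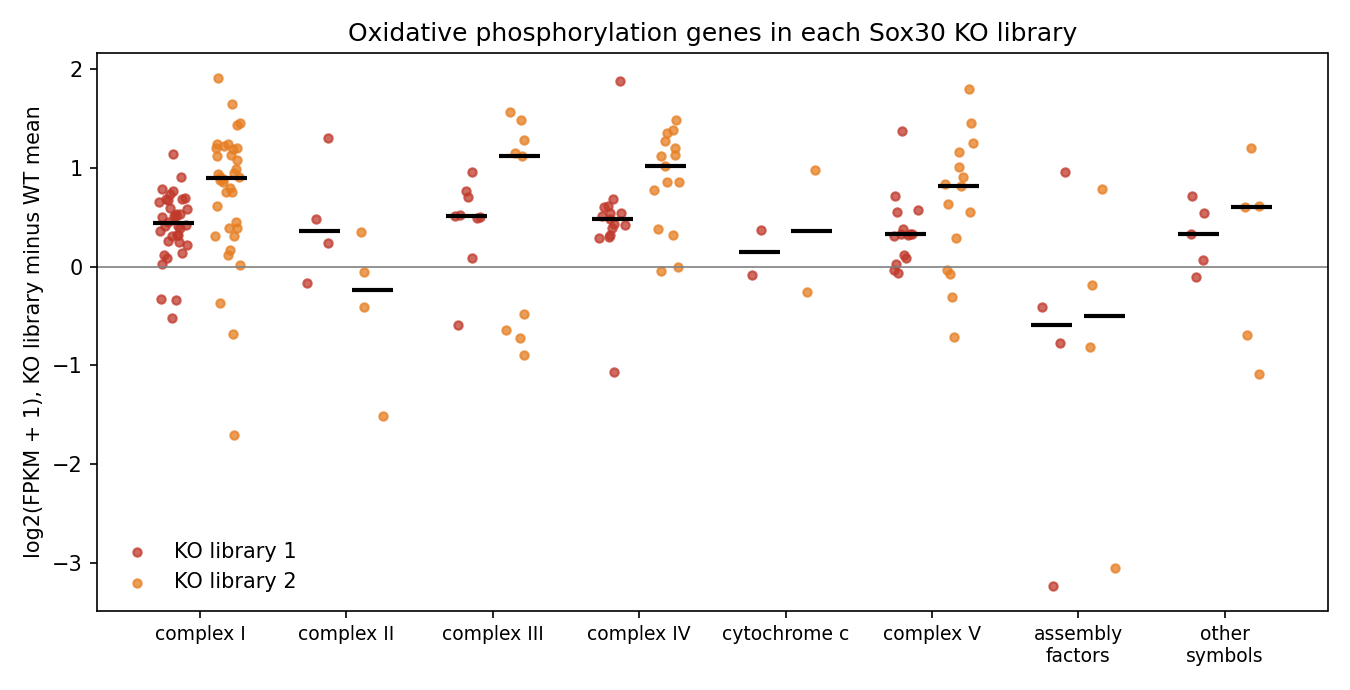
Change of each tested member in KO library 1 and KO library 2, as log2(FPKM + 1) minus the WT mean (vertical axis), by complex (horizontal axis); points are genes and bars are medians. In complexes I, III, IV and V the medians lie above 0 in both KO libraries and are higher in KO library 2 (0.90, 1.12, 1.02 and 0.81) than in KO library 1 (0.44, 0.51, 0.49 and 0.33).

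The change was not the same in the KO libraries. Set against the WT mean, the median member was 0.42 higher in KO library 1 and 0.83 higher in KO library 2, and 58 of 90 members were higher in KO library 2 than in KO library 1, where 3307 of all 9124 genes tested were (median difference 0.41 for members and -0.21 for all genes). The WT libraries differed as well: only 14 of 90 members were higher in WT library 2 than in WT library 1, with a median difference of -0.28, where 5368 of all genes were, with a median of 0.11. The plot of change by complex shows both KO libraries. Median changes were 0.71 for complex I, -0.10 for complex II, 0.81 for complex III, 0.76 for complex IV and 0.49 for complex V. Under 15 other settings they ranged from 0.40 to 0.94 for complex I, from -0.30 to 0.36 for complex II, from 0.22 to 1.12 for complex III, from 0.23 to 1.02 for complex IV and from 0.32 to 0.81 for complex V. Quantile normalization moved the median of all genes from -0.23 to 0.24, and there the medians were 0.40 for complex I, 0.36 for complex III, 0.23 for complex IV and 0.40 for complex V.

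Complex I, the NADH dehydrogenase that feeds electrons into the chain, had 36 members tested, of which limma called 0 in either direction. The 7 core subunits that carry the flavin and iron-sulfur centres had a median of 0.30, and the 29 accessory subunits one of 0.72. Ndufs1, the largest core subunit with iron-sulfur clusters, was at 33.0 and 12.1 FPKM in KO libraries, against 33.3 and 52.3 FPKM in WT libraries. Both KO values lay below both WT values, by a narrow margin for KO library 1, and the change was -1.02 (SE 0.53, limma adjusted p = 0.245). Ndufv1, which binds NADH, was at 156 and 130 FPKM in KO libraries, against 113 and 118 FPKM in WT libraries, a change of 0.30 with a 95% interval of -0.38 to 0.97. Of the 7 core subunits 6 had positive changes, and limma called 0.

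Among accessory subunits of complex I the most abundant were Ndufa7, Ndufc1 and Ndufb8, small proteins around the core. Ndufa7 was at 2683 and 3674 FPKM in KO libraries, against 2182 and 1650.4 FPKM in WT libraries. Ndufc1 was at 2132 and 4204 FPKM in KO libraries, against 1993 and 1589.6 FPKM in WT libraries. The groups did not overlap in either gene, and the lower KO value stood close to the higher WT value in Ndufc1. Ndufa3 had the second largest positive change of complex I, at 1076 and 1983 FPKM in KO libraries, against 733 and 542 FPKM in WT libraries (change 1.21, SE 0.38, limma adjusted p = 0.0924). The largest, Ndufs5, stood on overlapping values of 18.9 and 50.6 FPKM in KO libraries and 6.60 and 23.8 FPKM in WT libraries (limma adjusted p = 0.290). Ndufa1, a small X-linked subunit of the membrane arm, went the other way, with 84.1 and 81.4 FPKM in KO libraries, against 124 and 89.4 FPKM in WT libraries (limma adjusted p = 0.474).

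Complex II, succinate dehydrogenase, is shared by the respiratory chain and the tricarboxylic acid cycle, and its 4 genes showed no common shift. Sdha, the flavoprotein that oxidises succinate, was at 65.9 and 33.5 FPKM in KO libraries, against 17.6 and 38.4 FPKM in WT libraries. Sdhb, the iron-sulfur subunit, was the most abundant at 331 and 271 FPKM in KO libraries, against 320.0 and 247 FPKM in WT libraries. The membrane anchors were lower in level: Sdhc was at 17.6 and 14.7 FPKM in KO libraries, against 23.4 and 16.9 FPKM in WT libraries. Sdhd was at 69.9 and 16.8 FPKM in KO libraries, against 54.1 and 45.8 FPKM in WT libraries. The groups overlapped in all 4 genes, with changes from -0.52 for Sdhd to 0.83 for Sdha and standard errors from 0.29 to 0.65.

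Complex III, which passes electrons from quinol to cytochrome c, split by subunit. Its 5 small subunits had changes from 0.81 to 1.26, while Uqcrc1, Uqcrc2, Uqcrfs1 and Cyc1 had changes from -0.66 to 0.01. In the limma fit 0 of the 9 passed. Both KO values lay above both WT values in each small subunit. The same held for 22.2% of all genes tested and for 40.4% of those with transcripts of 128 to 1188 bases. Uqcrq, a small subunit bound to cytochrome b, was at 2520.2 and 3849 FPKM in KO libraries, against 1501 and 1121 FPKM in WT libraries (change 1.26, SE 0.33, limma adjusted p = 0.0563). Uqcrh, the hinge protein that helps dock cytochrome c, was at 624 and 1071 FPKM in KO libraries, against 439 and 331 FPKM in WT libraries. Uqcr10 was at 1152 and 1941 FPKM in KO libraries, against 928 and 686 FPKM in WT libraries. The genotypes did not overlap in these 3 genes, and KO library 2 was the highest in each.

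The large subunits of complex III did not follow. Uqcrfs1, the Rieske iron-sulfur protein, was at 95.3 and 86.8 FPKM in KO libraries, against 151 and 137 FPKM in WT libraries (change -0.66, SE 0.27, limma adjusted p = 0.164), without overlap. Uqcrc2, a core protein, was at 51.7 and 25.6 FPKM in KO libraries, against 48.7 and 48.2 FPKM in WT libraries. Uqcrc1, the other core protein, was at 643 and 326 FPKM in KO libraries, against 440.1 and 469 FPKM in WT libraries. Cyc1, the cytochrome c1 subunit, was at 58.6 and 25.7 FPKM in KO libraries, against 40.3 and 41.3 FPKM in WT libraries. In the last 3 genes KO library 1 lay above both WT values and KO library 2 below both. The 5 small subunits have a median transcript length of 535 bases and the 4 large ones of 1586 bases, so size of subunit and length of transcript cannot be told apart here.

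**Figure D2:**
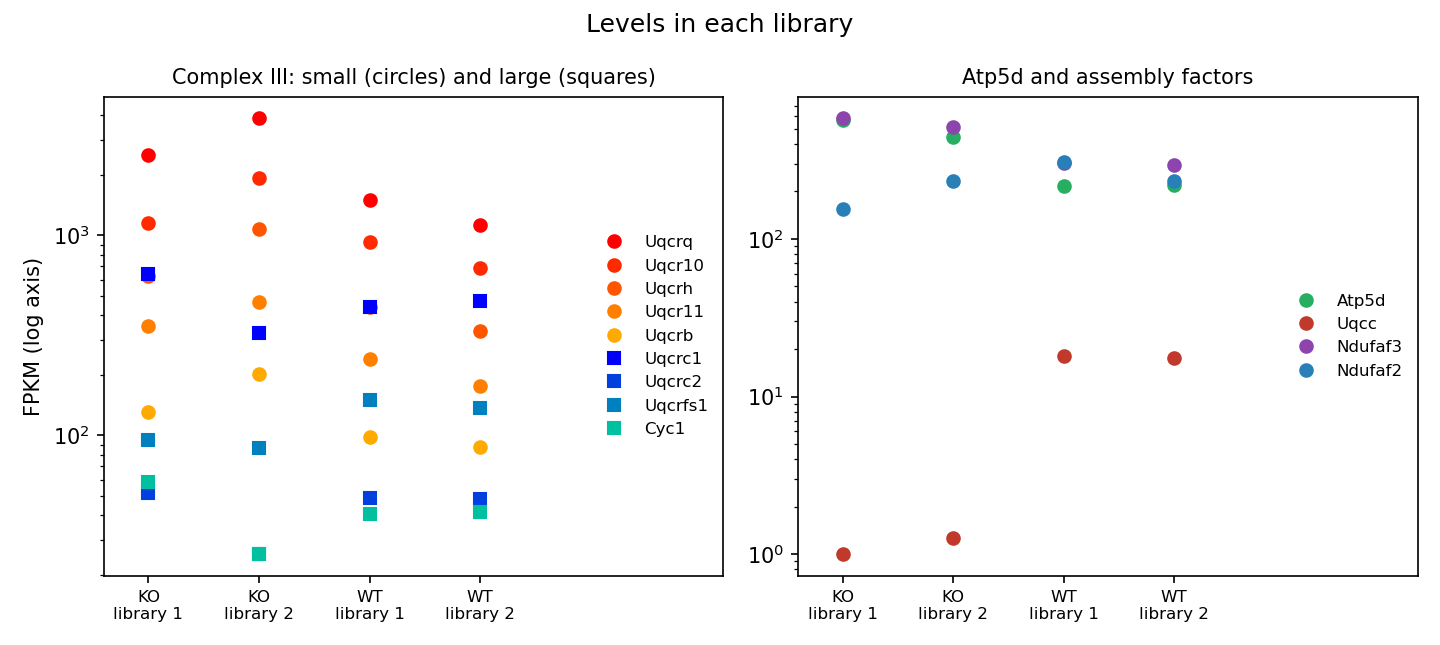
FPKM on a log axis in each library (horizontal axis) for the complex III subunits (left; circles, small subunits; squares, large subunits) and for Atp5d and 3 assembly factors (right). In KO library 2 all 5 circles are at their highest and all 4 squares at their lowest, and Uqcc lies at 1.01 and 1.27 FPKM in KO libraries, against 18.1 and 17.6 FPKM in WT libraries.

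Complex IV, cytochrome c oxidase, reduces oxygen, and 15 of its 18 members were tested, and limma called 0 of them. Cox8c, the testis form of subunit 8, was at 4312 and 7429 FPKM in KO libraries, against 3727 and 2542 FPKM in WT libraries (change 0.88, SE 0.38, limma adjusted p = 0.175). Cox6b2, the testis form of a subunit on the side of the intermembrane space, was at 2761 and 4843 FPKM in KO libraries, against 2256 and 1586 FPKM in WT libraries (change 0.95, SE 0.37, limma adjusted p = 0.151). Cox4i1, a regulatory subunit, was at 2613 and 3548 FPKM in KO libraries, against 1783 and 1486 FPKM in WT libraries. Both KO values lay above both WT values in each of these genes. Cox7a2 was at 1798 and 3332 FPKM in KO libraries, against 1355 and 1037 FPKM in WT libraries, while its heart and muscle form Cox7a1 was at 15.5 and 62.0 FPKM in KO libraries, against 36.2 and 31.3 FPKM in WT libraries. Cox6a1, the widely expressed form of subunit 6a, was at 1300.3 and 1743 FPKM in KO libraries, against 1108 and 833 FPKM in WT libraries. Ndufa4, named for complex I and known as a complex IV subunit, was at 129 and 81.3 FPKM in KO libraries, against 86.4 and 81.3 FPKM in WT libraries, and its paralog Ndufa4l2 at 52.7 and 55.3 FPKM, against 37.9 and 33.6 FPKM.

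Testis forms stood above their widely expressed forms in every library of both genotypes. FPKM are scaled by length, but by a length the authors' tools estimated, and the forms differ in transcript length (655 bases for Cyct and 3123 for Cycs, 542 for Cox7b2 and 1001 for Cox7b), so the folds between forms carry that error too. Cox6b2 stood 9.58-fold and 24.7-fold above Cox6b1 in KO libraries 1 and 2, against 9.39-fold and 9.84-fold in WT libraries 1 and 2. Cox6b1 itself was at 288 and 196 FPKM in KO libraries, against 240.2 and 161 FPKM in WT libraries. Cox8c stood 30.9-fold and 54.7-fold above Cox8a in KO libraries, against 32.8-fold and 26.8-fold in WT libraries, with Cox8a at 140 and 136 FPKM in KO libraries, against 114 and 94.9 FPKM in WT libraries. Cyct was at 229.9 and 349 FPKM in KO libraries, against 196 and 160.2 FPKM in WT libraries, and Cycs at 5.30 and 4.59 FPKM in KO libraries, against 4.72 and 6.82 FPKM in WT libraries. The ratio of Cyct to Cycs was thus 43.3 and 76.1 in KO libraries, against 41.5 and 23.5 in WT libraries. Cox7b2 stood 36.0-fold and 217-fold above Cox7b in KO libraries, against 116-fold and 131-fold in WT libraries, and Cox7b was at 19.0 and 5.81 FPKM in KO libraries, against 5.0001 and 3.954 FPKM in WT libraries.

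The log2 ratio of testis form to partner averaged 3.94 ± 0.96 in KO and 3.26 ± 0.05 in WT for Cox6b2 over Cox6b1, 5.35 ± 0.58 in KO and 4.88 ± 0.21 in WT for Cox8c over Cox8a, and 5.58 ± 0.55 in KO and 4.73 ± 0.52 in WT for Cyct over Cycs (SD, n = 2 each, values + 1). The shifts were 0.68, 0.48 and 0.85. The ratio of Cox7b2 over Cox7b, which was not tested, went the other way, with a shift of -0.34. It averaged 6.32 ± 1.72 in KO and 6.66 ± 0.08 in WT. For Cox6b2 and Cox8c the ratio in KO library 1 lay between the WT ratios and that in KO library 2 above them: without KO library 2 the shifts were -0.00276 for Cox6b2 and 0.06 for Cox8c, and for these 2 pairs quantile normalization turned the sign (-0.09 and -0.32). For Cyct the shift was 0.46 without KO library 2, 0.48 without WT library 2, 0.21 after a lowess correction on transcript length, 0.21 with quantile normalization and 0.28 after corrections on both length and GC content. In exact permutation tests over the libraries (two-sided, n = 2 each) p was 0.667, 0.667 and 0.333, and 0.667 for each after adjustment over the 3 tests; 0.333 is the smallest p that 2 libraries against 2 allow, so such a design cannot pass a threshold of 0.05. Processed copies of Cycs, Cox7b, Ndufa4 and others of these genes exist in the genome, and values of the parent genes may hold or lack reads shared with them.

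**Figure D3:**
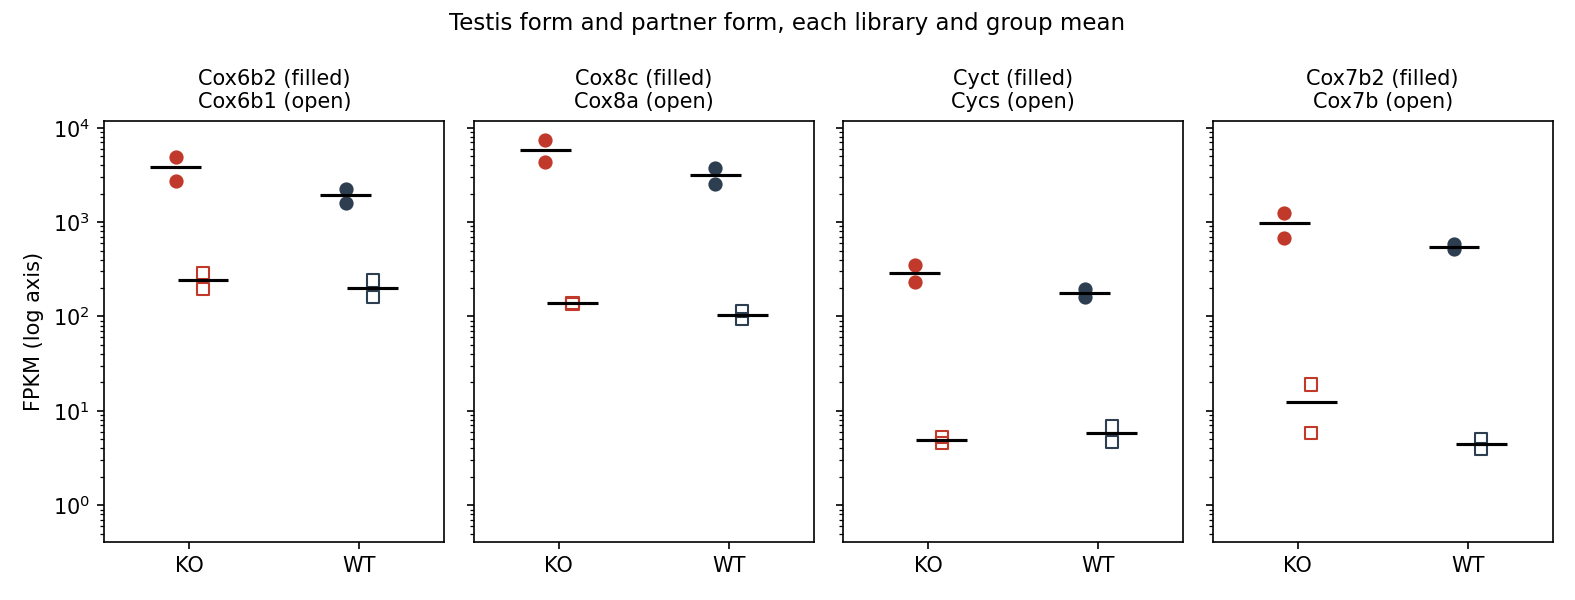
FPKM on a log axis of 4 testis forms (filled circles) and their partners (open squares) in KO (left) and WT (right) of each panel; points are libraries and bars are group means. Testis forms lie above their partners in every library, from 9.39-fold for Cox6b2 in WT library 1 to 217-fold for Cox7b2 in KO library 2.

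Complex V, the ATP synthase, had 15 members tested, of which 0 fell and 1 rose. Atp5d, the delta subunit of the rotating central stalk, was at 568 and 441 FPKM in KO libraries, against 217 and 219 FPKM in WT libraries. The groups were well apart, and Atp5d rose by 1.20 in log2 units (95% interval 0.52 to 1.87, SE 0.28, limma adjusted p = 0.0379). Its transcript is rich in GC (60.2%), and the call ended after a lowess correction on GC content (change 0.78, limma adjusted p = 0.220), after corrections on both GC content and length (change 0.61, limma adjusted p = 0.0843), with no filter on low values (limma adjusted p = 0.0970), without WT library 1 (limma adjusted p = 0.326) or without WT library 2 (limma adjusted p = 0.344), and with the library number as a replicate block (limma adjusted p = 0.112). The other catalytic F1 genes were not called: Atp5b, the beta subunit that makes ATP, was at 507 and 248 FPKM in KO libraries, against 335 and 498 FPKM in WT libraries. Atp5a1, the alpha subunit, was at 74.0 and 47.6 FPKM in KO libraries, against 46.7 and 74.8 FPKM in WT libraries, and Atp5c1, the gamma subunit, at 233 and 203 FPKM, against 224 and 205 FPKM (change 0.02, 95% interval -0.63 to 0.68). The groups overlapped in these 3 genes.

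The 10 complex V members other than the alpha to epsilon subunits had a median change of 0.49, and limma called 0. Both KO values lay above both WT values in 7 of the 10. The same held for 22.2% of all genes tested and for 40.4% of those with transcripts of 128 to 1188 bases. Atp5k, a small subunit of the membrane part, was at 2888 and 6742 FPKM in KO libraries, against 2273 and 1643 FPKM in WT libraries (change 1.19, SE 0.46, limma adjusted p = 0.143). Atp5e, the epsilon subunit of the stalk, was at 1990.1 and 4349.6 FPKM in KO libraries, against 1802 and 1394 FPKM in WT libraries. Atp5j2 was at 1299.7 and 1983 FPKM in KO libraries, against 1014 and 775 FPKM in WT libraries. KO library 2 was the highest in each, and the groups did not overlap. Of the 3 genes for subunit c, which forms the proton-driven ring, Atp5g3 was the most abundant at 129 and 146 FPKM in KO libraries, against 110.0 and 89.0 FPKM in WT libraries. Atp5g1 was at 58.1 and 70.2 FPKM in KO libraries, against 64.1 and 50.7 FPKM in WT libraries, and Atp5g2 at 6.41 and 12.1 FPKM, against 6.16 and 5.79 FPKM. Atp5f1, of the peripheral stalk, stayed within 32.4 to 36.1 FPKM over all 4 libraries.

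The clearest loss was in an assembly factor. Uqcc, which helps the mitochondrial cytochrome b to be made and built into complex III, was at 1.01 and 1.27 FPKM in KO libraries, against 18.1 and 17.6 FPKM in WT libraries, and fell by 3.14 in log2 units (95% interval -3.99 to -2.30, SE 0.34, limma adjusted p = 0.00261). The values of each genotype lay close together and far from the other genotype. Leaving out WT library 1 gave -3.13 with a limma adjusted p of 0.131, and leaving out WT library 2 gave -3.16 with a limma adjusted p of 0.133. In these fits the spread comes from the KO pair alone. Ndufaf3, an assembly factor of complex I, was at 581 and 513 FPKM in KO libraries, against 301 and 294 FPKM in WT libraries (change 0.87, SE 0.26, limma adjusted p = 0.0790). Ndufaf2, another, was at 155 and 234 FPKM in KO libraries, against 308 and 231 FPKM in WT libraries, and Ndufaf1 at 4.92 and 3.48 FPKM, against 7.54 and 6.22 FPKM. Ndufaf3 lay higher and Ndufaf1 lower in both KO libraries, and neither passed.

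Lists of genes outside the rule that build or regulate these complexes, or feed them, had medians below 0 before correction for GC content and length. Among 24 tested assembly and biogenesis genes limma called 0 lower and 1 higher, where 13.4% of all genes fell and 1.95% rose, with a median of -0.40 (0.09 in KO library 1, -0.69 in KO library 2, and -0.19 after both corrections). The one that rose, Sco2, delivers copper to complex IV and was at 70.4 and 58.9 FPKM in KO libraries, against 25.2 and 17.9 FPKM in WT libraries (change 1.56, SE 0.32, limma adjusted p = 0.0270). Of 12 tested genes for mitochondrial DNA upkeep and regulation of respiratory genes 3 fell and 0 rose, with a median of -0.63 that turned to 0.07 after both corrections. Nrf1, the nuclear respiratory factor whose core motif was counted above, was at 1.42 and 0.323 FPKM in KO libraries, against 6.94 and 6.19 FPKM in WT libraries (limma adjusted p = 0.0250). Gabpb1, a partner of the ETS factor GABPA, was at 1.67 and 0.0690 FPKM in KO libraries, against 8.98 and 8.05 FPKM in WT libraries (limma adjusted p = 0.0261). Tfam, which packages and transcribes mitochondrial DNA, was at 0.166 and 1.15 FPKM in KO libraries, against 7.44 and 5.09 FPKM in WT libraries (limma adjusted p = 0.0249). In the tricarboxylic acid cycle list 1 of 15 tested genes fell and 0 rose, with a median of -0.51 (-0.11 after both corrections). The fallen gene, Fh1, codes for fumarase and was at 5.38 and 0.392 FPKM in KO libraries, against 23.9 and 23.1 FPKM in WT libraries (limma adjusted p = 0.0426). Median transcript length was 2037 bases in the assembly list, 2566 in the upkeep list and 2403 in the cycle list, against 868 bases in the oxidative phosphorylation genes.

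Transcript length moved with the members' change. Lengths were taken from GENCODE M21 transcripts. Of the 90 tested members 61 were in the shortest of 5 equal length classes (128 to 1188 bases), where the median change was 0.73 for members and 0.22 for all 1799 genes. In the next class it was 0.30 for 15 members and -0.09 for all genes, and in the third -0.20 for 9 members and -0.30 for all genes. Both KO values lay above both WT values in 49 of the 61 members of the shortest class, where 40.4% of all genes of that class did so. The same held for 0 of the 14 members of the 3 longest classes, where 16.1%, 15.8% and 11.8% of all genes did so. Across members the change correlated with log2 length with Pearson's r = -0.54 (Spearman's rho = -0.51, n = 90 genes), with r = -0.23 in KO library 1 and r = -0.64 in KO library 2. Across the 8994 genes tested that have a length, r was 0.02 (rho = -0.15). It was 0.04 in KO library 1 (rho = -0.12) and 0.002 in KO library 2 (rho = -0.13). Over the 5 length classes the median change of all genes went from 0.22 in the shortest to -0.415 in the longest. These are descriptions over genes that share the same 4 libraries. Length also separated libraries of the same genotype: across members the difference of KO library 2 from KO library 1 had r = -0.57 with log2 length, and that of WT library 2 from WT library 1 had r = 0.38. Across all genes with a length these values were -0.07 for the KO libraries and 0.41 for the WT libraries.

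**Figure D4:**
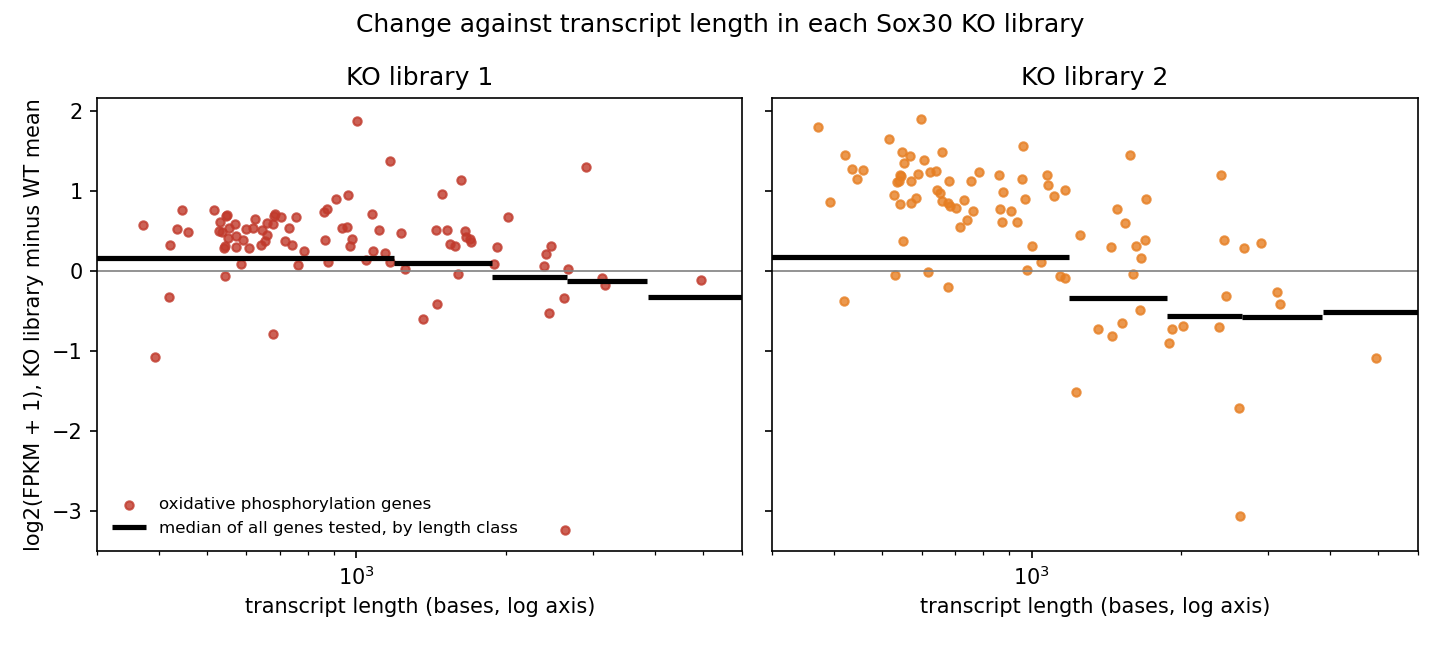
Change of each tested member against its transcript length (horizontal, bases on a log axis) in KO library 1 (left) and KO library 2 (right), as log2(FPKM + 1) minus the WT mean; points are genes and black bars are medians of all genes tested in 5 length classes. In the shortest class the members' median is 0.50 in KO library 1 and 0.995 in KO library 2 (all genes 0.16 and 0.18), and in the third class it is 0.09 and -0.69.

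GC content moved less with the members' change, with r = 0.19 (rho = 0.27, n = 90 genes). Across all 8994 genes tested that have a GC content, r was 0.23 (rho = 0.35). Members spanned 36.7% to 60.4% with a median of 51.3%, against 49.9% for all genes tested. Over 5 equal GC classes the median change of all genes went from -0.71 in the lowest to 0.37 in the highest, while that of the members was 0.66 and 0.67 there and 0.15 to 0.75 in between. After a lowess correction of each library on GC content the members' median was 0.73, and on length 0.47. With both corrections, a setting chosen after seeing the data, it was 0.38, with all genes at 0.02 in that fit. There 11 members rose and 1 fell, and of all genes 367 rose and 1151 fell, against 178 and 1221 uncorrected. By complex the medians with both corrections were 0.47 for I, -0.03 for II, 0.22 for III, 0.59 for IV and 0.32 for V. Within complex I they were -0.03 for the core and 0.54 for the accessory subunits, against 0.30 and 0.72 uncorrected, and within complex III -0.23 for the large and 0.91 for the small subunits. How far length or GC content accounts for the shift was not tested.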

How the data were processed

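RNA sequencing libraries of sorted haploid testis cells, 2 KO and 2 WT, were analysed from the deposited FPKM. The NEBNext Ultra RNA kit was used for library preparation, per the labels' protocols, and per the submitters' processing notes TopHat2 2.0.6, Cufflinks 2.0.2, Cuffdiff and build mm9 were used. Neither their settings nor the use of strand in counting is given in the sources used here, and overlapping genes cannot be told apart. FPKM divide by transcript length as the authors' tools estimated it, and short transcripts depend most on that step. No read counts stood beside the FPKM, so the depth is unknown and no counting intervals are given.

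Each table held 23021 entries for 22552 symbols, and entries of a symbol were summed. The 9124 genes with a mean of at least 1 FPKM were fitted as log2(FPKM + 1) with limma 3.58.1 in R 4.3.3 (genotype only, trended empirical Bayes, 2 residual and 3.84 prior degrees of freedom, two-sided), and the fit was tested on simulated data. Exact tests used scipy 1.17.1. Length and GC content are medians over APPRIS principal or, failing those, basic coding transcripts of GENCODE M21, found for all 94 members and 98.6% of the genes tested. Members, lists, tests and settings were chosen with earlier results of these data known. Named members were the testis forms with their partners, paralogous pairs, every called member, and in each complex the most abundant and most changed; Ndufv1, Uqcrc1, Cyc1, Atp5a1 and Atp5c1 were named after their values were seen. The alternatives were other pseudocounts (0.1 and 5), filters (none, and a mean of 5 FPKM), median-ratio scaling, quantile normalization, lowess corrections on GC content and length (span 0.3), leaving out each library and a replicate block; a crossed block and both corrections together were added after seeing the data.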

Additional observations from a re-analysis of the deposited data

How the results depend on the processing

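The fall of Uqcc passed in all 11 settings that kept the 4 libraries and in neither fit that left out a WT library, where the KO pair alone gives the spread. The number of members that rose was 1 as reported, 0 with no filter on low values, 10 with quantile normalization, 4 after the GC correction, 7 after the length correction, 11 after both corrections, and from 0 to 36 when 1 library was left out; the number that fell was 1, or from 0 to 5 with a library left out. The library number gave no pairing in the labels, and deviations of same-numbered libraries correlated at -0.20 across genes. With the replicate block 0 members rose and 1 fell, beside 82 and 1056 of all genes. With the crossed pairing 18 members rose and 1 fell, beside 390 and 1416 of all genes. The members' median of 0.67 ranged from 0.42 to 0.83 with a library left out and was 0.38 after both corrections. The excess over the median of all genes was 0.89 as reported, 0.94 with median-ratio scaling, 0.14 with quantile normalization and 0.36 after both corrections. All genes called numbered 1221 lower and 178 higher as reported and 999 lower and 961 higher with quantile normalization. They numbered 696 lower and 32 higher with no filter on low values, and 1170 lower and 320 higher after the GC correction. After the length correction they numbered 1214 lower and 503 higher, and after both corrections 1151 lower and 367 higher. Where these settings called more members higher than reported, they called more of all genes higher as well. The cause of these changes was not tested.

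Shifts of the isoform ratio with a library left out ranged from -0.00276 to 1.36 for Cox6b2, 0.06 to 0.89 for Cox8c and 0.46 to 1.23 for Cyct; with quantile normalization those of Cox6b2 and Cox8c were -0.0908 and -0.32. The following genes, none called, changed sign. With median-ratio scaling the changes were 0.0202 for Cycs, 0.12 for Cox7a1, 0.0227 for Atp5b and 0.19 for Atp5f1. With quantile normalization they were 0.38 for Cycs, -0.12 for Ndufa7, -0.0855 for Ndufc1, -0.0386 for Sdhb, 0.12 for Sdhc, 0.22 for Cox7a1 and 0.29 for Atp5f1. After the GC correction they were 0.56 for Cycs, 0.0686 for Ndufa1, 0.0528 for Sdhc, 0.16 for Uqcrc2 and 0.29 for Atp5f1. After the length correction they were -0.0126 for Cox6b1, 0.19 for Cycs, 0.0788 for Sdhc, 0.0541 for Atp5b, 0.12 for Atp5f1 and -0.0344 for Ndufa4. After both they were -0.36 for Cox8a, 0.63 for Cycs, -0.18 for Sdhb, 0.13 for Sdhc, 0.22 for Uqcrc2, 0.0201 for Atp5b, 0.29 for Atp5f1, -0.12 for Cox6a1, -0.14 for Atp5g2 and -0.0543 for Ndufa4l2. With a library left out the ranges that crossed 0 were -0.0139 to 0.56 for Cox6b1, -0.40 to 0.0546 for Cycs, -0.0934 to 0.28 for Sdhb, -1.51 to 0.48 for Sdhd, -0.89 to 0.0932 for Uqcrc2, -1.07 to 0.86 for Cox7a1, -0.72 to 0.31 for Atp5b, -0.11 to 0.0445 for Atp5f1, -0.00508 to 0.33 for Atp5g1 and -0.0430 to 0.61 for Ndufa4.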

Other observations

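The mitochondrial ribosome translates the subunits coded in mitochondrial DNA. Genes named for it, with symbols beginning Mrpl or Mrps, had a median change above that of all genes tested (-0.23). They were taken by symbol, without a check that each codes for a ribosome subunit. Of 75 tested, 3 fell and 2 rose, where 13.4% of all genes tested fell and 1.95% rose. Their median log2 change was 0.44 (0.37 in KO library 1 and 0.56 in KO library 2) and 0.41 after the corrections for GC content and length. Mrpl12 was at 196 and 235 FPKM in KO libraries, against 104 and 95.7 FPKM in WT libraries (limma adjusted p = 0.0498). Mrpl41 was at 19.1 and 23.4 FPKM in KO libraries, against 7.58 and 5.90 FPKM in WT libraries (limma adjusted p = 0.0345). Mrps36 was at 1.80 and 1.54 FPKM in KO libraries, against 13.45 and 10.52 FPKM in WT libraries (limma adjusted p = 0.00976), and Mrps9 and Mrps2 fell as well (changes -1.40 and -1.54).

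Abundant short transcripts of other kinds were described in the same way. Among 700 other genes in both the shortest length class and the most abundant of 5 level classes, the median change was 0.46 (quartiles -0.49 and 0.82), 135 fell and 38 rose. Both KO values lay above both WT values in 55.9% of these and both below in 26.1%. Among the 56 oxidative phosphorylation genes in the same classes the median change was 0.73 (quartiles 0.58 and 0.91), 0 fell and 1 rose, and both KO values lay above both WT values in 82.1% and both below in 1.79%. The match in level is incomplete, with a median level of 452 FPKM for these 56 genes and 152 FPKM for the 700 others.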
